A study of Mus musculus with 2 samples.

Results

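Genes of the regulatory T cell (Treg) and T helper 17 (Th17) lineages were followed in cultured T helper 2 (Th2) cells of Ecm1 knockout (KO) and wild-type (WT) mice. Members were all probe sets whose only gene symbol is Foxp3, Ikzf2, Ikzf4, Nrp1, Rora, Ahr, Il17a, Il17f or Il21. This gave 25 probe sets of 8 genes, out of 45101 probe sets and 18193 named genes on the array. Il17f has no probe set in the annotation used and was not analysed here. The series held 2 Affymetrix mouse arrays, 1 of Th2 cells from KO mice and 1 of Th2 cells from WT mice, both of strain C57BL/6. The labels describe female animals kept to 6 weeks. They say that splenic CD4 cells were taken by magnetic separation and grown for 4 days on anti-CD3 (3 µg/ml) with anti-CD28 (2 µg/ml), IL-4, and antibodies that block IFN-γ and IL-12 (10 µg/ml each). Both groups shared this culture, and the labels list neither TGF-β nor IL-6 in it. How the knockout allele was made, and how many mice each array stands for, the sources used here do not give. There were no replicates, so no value has an SD over samples or a p-value, and every comparison describes these 2 arrays. The number of arrays limits the precision.

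Tregs restrain immune responses and depend on the transcription factor Foxp3, often together with the Ikaros-family factors Helios (Ikzf2) and Eos (Ikzf4) and the surface receptor neuropilin-1 (Nrp1). Th17 cells defend mucosal surfaces, secrete IL-17A and IL-17F under the direction of ROR nuclear receptors, RORα (Rora) among them, and are tuned by the aryl hydrocarbon receptor (Ahr), a ligand-activated factor. IL-21 is secreted by Th17 and T follicular helper cells, and activated Th2 cells can make it too. TGF-β can steer naive CD4 cells to either lineage, with IL-6 turning the balance from Foxp3 to Th17.

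Il21 and Rora were the members lowest in the knockout, and their upstream sequences from RefSeq (GRCm38.p6) are printed because the results turn on these genes. Each is the 250 bases before the transcription start, 5′ to 3′ on the gene's own strand. Capitals mark GGAAA or its reverse complement TTTCC, the core letters recognised by NFAT, a factor activated by T cell receptor signals.
Il21, chr3:37232637-37232886, minus strand: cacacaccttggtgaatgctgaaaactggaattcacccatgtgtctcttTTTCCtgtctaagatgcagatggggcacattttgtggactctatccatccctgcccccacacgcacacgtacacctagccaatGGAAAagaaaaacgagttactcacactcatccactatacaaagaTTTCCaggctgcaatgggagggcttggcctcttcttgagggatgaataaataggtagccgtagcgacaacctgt
Rora, chr9:68653536-68653785, plus strand: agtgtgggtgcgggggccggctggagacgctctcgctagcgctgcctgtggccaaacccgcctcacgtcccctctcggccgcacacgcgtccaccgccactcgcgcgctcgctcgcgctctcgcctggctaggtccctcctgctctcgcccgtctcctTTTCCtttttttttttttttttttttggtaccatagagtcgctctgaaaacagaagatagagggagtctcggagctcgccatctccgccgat
The Il21 window held 3 matches to GGAAA and the Rora window 1, counting both strands. Of 32851 such windows in the table, 55.6% held at least 1 match and 6.39% held 3 or more. The 6-letter ROR half-site AGGTCA had 1 match in the windows of Il17a, Il17f and Nrp1 and 0 in those of Il21 and Rora. Of the Foxp3 windows 1 held 2 matches and the other 0, and 14.0% of all windows held one on either strand. The Ahr core GCGTG had 1 match in each of the Il21, Rora and Nrp1 windows and in both Foxp3 windows, and 28.2% of all windows held it. The table had windows for 6 of the 9 member genes. No regulatory role of these letters was measured.

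The knocked-out gene was checked first. Ecm1 read 19.3 on the KO array and 29114.7 on the WT array. The arrays also differed beyond genotype. The Y-linked Eif2s3y read 2214.4 on the KO array and 25.0 on the WT array, although the labels describe females. Xist, from the inactive X chromosome, read 8715.3 and 19739.9. Its 3 probe sets on the KO array were at 38.7 to 48.0% of their WT signals, so the KO array carried both transcripts. Whether the KO sample mixed cells of both sexes was not tested, and sex and genotype cannot be told apart. The sample descriptions name liver, whereas titles and source names say Th2 cells. The T cell markers Cd3d, Cd3e, Cd3g, Cd247, Cd4, Cd2, Cd5, Cd28 and Trat1 were above the median signal on both arrays. So were 7 of 8 Th2 markers on the array, Gata3 and Il4 among them. Of the Th2 cytokine genes, Il5 read 68.3 on the KO array and 26.1, below the median, on the WT array. Il13 read 240.6 on the KO array and 69.6, just above the median, on the WT array. The 9 T cell markers summed to 49832 on the KO array and 98167.2 on the WT array. Markers of B cells summed to 34391.2 and 17009.2 over 9 genes, markers of plasma cells to 83669.8 and 37184.3 over 8, and markers of macrophages and monocytes to 5122.2 and 3778.1 over 13. Of the 7 macrophage and monocyte markers measured on both arrays, Ccr2 alone was lower in the knockout. Ccr2 read 440.1 on the KO array and 2556.8 on the WT array, the largest part of the WT sum. Lyz2, the largest part of the KO sum, read 2796.2 and 275.5. In bulk cultures, fewer cells of a type and less RNA per cell cannot be told apart.

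Signals are linear intensities as deposited. The median of each array, 65.5 on the KO array and 69.2 on the WT array, served as the floor, below which a signal was not ordered. Of the 25 member probe sets, 15 lay at or above the median on both arrays, 1 on the KO array only, 2 on the WT array only and 7 on neither. On the KO array 9 lay below the median, and on the WT array 8 did. The 7 below it on both arrays were 1 probe set each of Ikzf2, Ikzf4, Nrp1 and Ahr and 3 of Rora. Of the genes, 7 of 8 had a probe set above the median on both arrays, and Il17a did not. Across the array 46.3% of all probe sets reached the median on both arrays, and 55.8% of named genes did by their brightest probe set.

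**Figure D1:**
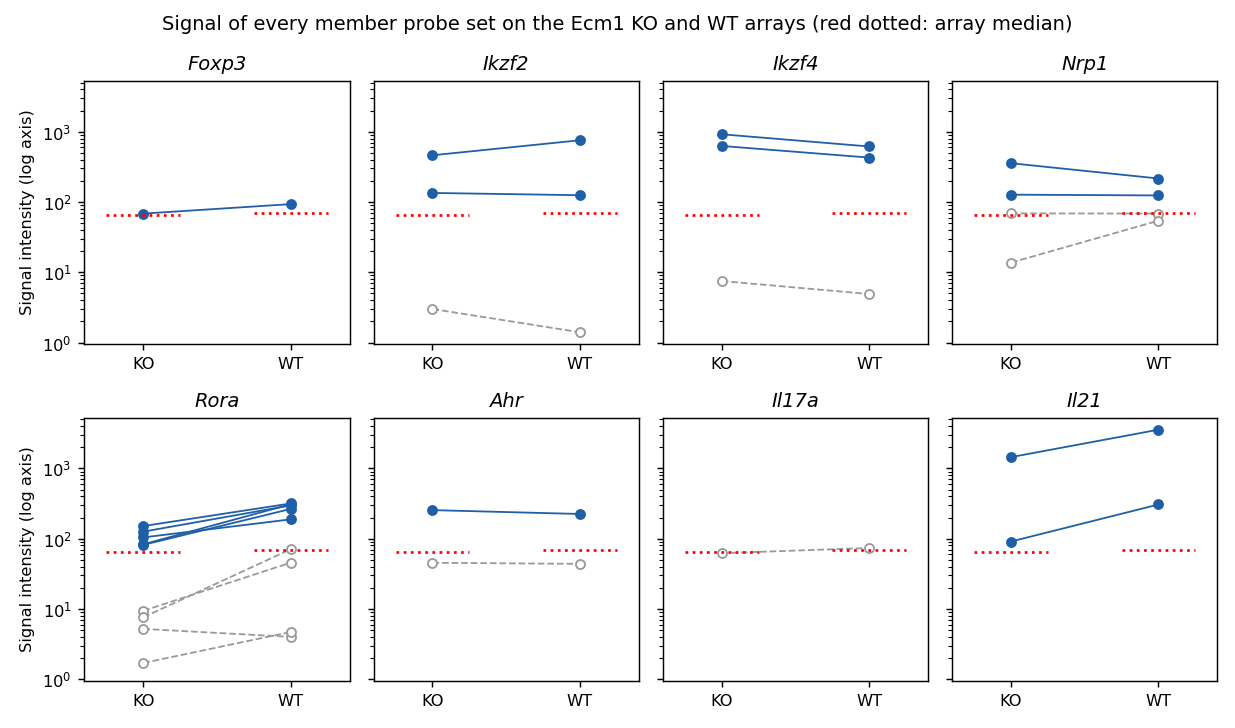
Signal intensity (log axis) of every member probe set on the KO array (left) and WT array (right), 1 panel per gene, with the array medians of 65.5 and 69.2 as red dotted lines. Filled points joined by solid lines are the 15 probe sets at or above the median on both arrays, and open points the other 10. Both Il21 lines and the 5 filled Rora lines are lower on the KO side, and both filled Ikzf4 lines are higher there.

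Differences are log2 KO minus WT, centred on their median of -0.10 over the 20834 probe sets that reached the floor on each array. A gene is represented by its brightest probe set, and 2-fold (1 on the log2 scale) is used as a mark of size. Among the 7 member genes above the floor on both arrays, 1 (Il21) was lower by 2-fold or more, 0 were higher by as much, and 6 lay within 2-fold. Over 10144 genes, 4.45% were lower by 2-fold or more and 7.15% higher. Of the 15 member probe sets measured on both arrays, 5 were past 2-fold downwards and 0 upwards, against 4.68% and 7.22% of 17951 named probe sets. Those 5 were 3 of Rora and 2 of Il21, so they stand for 2 genes and are not separate members. The member median was -0.35, with 4 genes below 0 and 3 above, against 0.04 for all genes. The only internal measure of error is the spread between probe sets. It is the SD of the difference between a gene's 2 brightest measured probe sets, divided by the square root of 2. This spread was 0.36 over 4657 genes, ranging from 0.42 among the dimmest genes to 0.28 among the brightest. It leaves out animal, culture and array error.

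**Figure D2:**
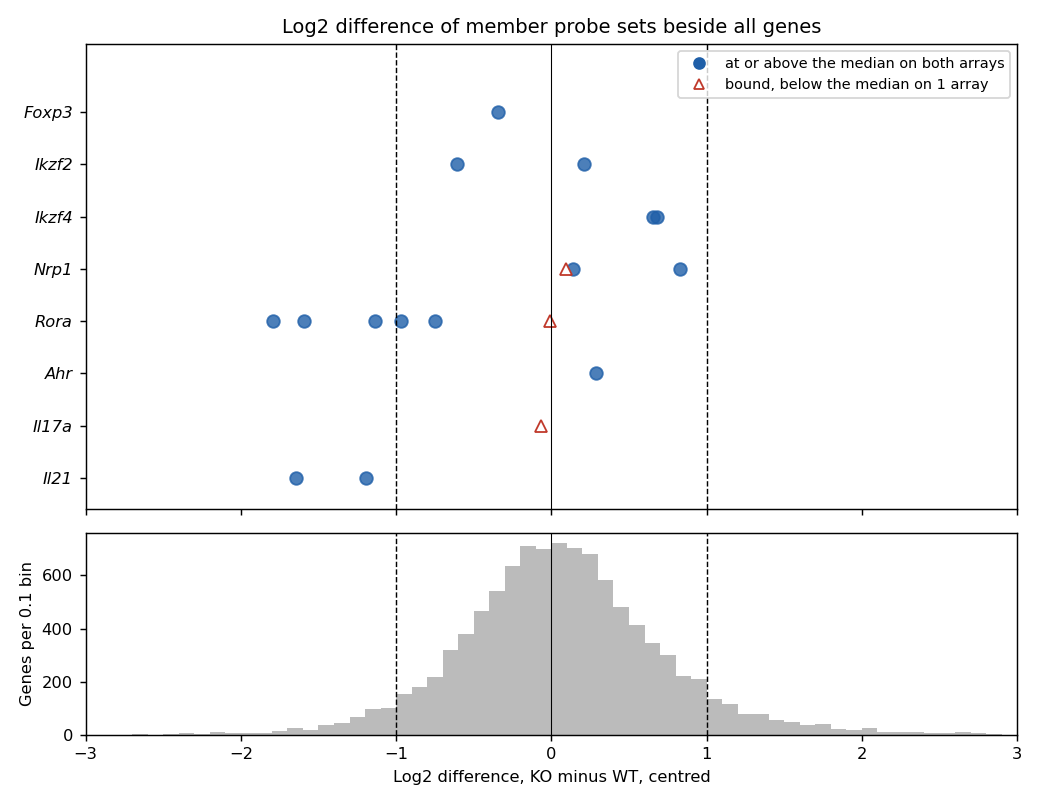
Centred log2 difference, KO minus WT, of member probe sets by gene (top) above a histogram of 10144 genes in bins of 0.1 (bottom), with dashed lines at 2-fold. Circles are probe sets measured on both arrays and triangles are bounds. The Il21 circles lie at -1.65 and -1.19, the Rora circles run from -1.79 to -0.75, and those of Ikzf4 lie at 0.65 and 0.68.

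Foxp3, the factor that defines Tregs, was close to the floor on both arrays. Its single probe set read 68.3 on the KO array and 93.2 on the WT array, at percentile 50.7 of the KO signals and 54.5 of the WT signals. The difference of -0.35 is within the spread between probe sets, and with the floor at percentile 60 or 70 Foxp3 has no measured value.

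Helios, encoded by Ikzf2 and found in many thymus-derived Tregs and some activated T cells, gave probe sets that did not move together. The brighter read 462.2 on the KO array and 755.4 on the WT array (-0.61), and the other read 134.5 and 124.8 (0.21). A further Ikzf2 probe set, at 3.0 and 1.4, was below the median on both arrays. The direction of Ikzf2 therefore depends on which probe set is read.

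Eos, encoded by Ikzf4, a partner of Foxp3 in gene silencing, was the member whose probe sets agreed most closely. One read 919.4 on the KO array and 616.0 on the WT array (0.68, 1.60-fold higher), and the other 626.5 and 428.3 (0.65, 1.57-fold higher). The probe set at 7.5 and 4.9 was below the median on both arrays. Ikzf4 was higher in the knockout by more than 1 SD of the spread between probe sets but by less than 2-fold, and 85.1% of the 10144 genes had a lower difference.

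The remaining Ikaros-family genes, chosen as a list of paralogs, did not share one direction. Ikaros itself (Ikzf1), needed for lymphocyte development, read 5197.4 on the KO array and 9088.8 on the WT array (-0.70). Aiolos (Ikzf3), an Ikaros relative of mature lymphocytes, read 5759.3 and 11136.9 (-0.85, with its 3 probe sets from -1.43 to -0.76). Ikzf5 read 1134.4 and 830.1 (0.55). Their median of -0.70 was -0.06 with the mean of probe sets. None of the 3 was past 2-fold as reported, although Ikzf3 reached -1.01 with quantile normalization, and like Ikzf4, Ikzf5 was higher.

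Neuropilin-1, a receptor for semaphorins and VEGF that marks many thymus-derived Tregs, was higher in both probe sets measured on each array, by unequal amounts. The brightest read 356.0 on the KO array and 215.8 on the WT array (0.83, 1.77-fold higher), while another read 127.1 and 123.9 (0.14). Another Nrp1 probe set read 68.8, just above the KO median, and 68.4, just below the WT median. The last was below the median on both arrays at 13.7 and 54.2. Averaging all 4 Nrp1 probe sets, signals below the median included, turned the difference to -0.20. Of 6 measured neuropilin partners, 5 lay above 0 and none past 2-fold by the brightest probe set, with a median of 0.41. Over all 10144 genes 46.9% lay below 0. The adaptor gene Gipc1, at 0.06, turned to -0.05 without centring. The median of the partners was 0.03 with the floor at percentile 70 and 0.06 with the mean of probe sets. The co-receptor Plxna1 read 527.4 on the KO array and 296.0 on the WT array (0.94), and Plxna3 96.5 and 75.4 (0.46). Nrp2 read 135.8 and 88.7 (0.72, its 3 probe sets from 0.06 to 1.33). The ligand Vegfa read 1002.5 and 844.0 (0.35, and 1.09 in its other probe set). Nrp1 is also made by macrophages, dendritic cells and endothelium. Of 13 macrophage and monocyte markers 7 were above the floor on both arrays, 3 of them at least 2-fold higher and 1 lower. Lyz2 was at 3.45, Ccr2 at -2.44 (its 3 probe sets from -2.44 to -0.67), Ms4a7 at 1.39 and Csf1r at 1.12. The other genes C1qa, C1qb, C1qc, Mrc1 and Fcgr1 reached the floor on the KO array only, and Itgam on neither. Dendritic markers summed to 2525.8 on the KO array and 1601.8 on the WT array over 8 genes, with Zbtb46, Xcr1, Siglech and Cd209a below the median on both. Bst2 (1600.3 and 1006.4) and Batf3 (564.0 and 328.6) made up most of both dendritic sums. Of 10 endothelium and stroma markers 8 were below the median on both, Cdh5, Tek and Vwf among them. The list summed to 609.5 and 962.2, mostly from Pecam1 (344.1 and 697.9). The part of these cells in the Nrp1 values was not tested.

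Rora was lower in the knockout by every probe set that was measured on both arrays. RORα helps drive IL-17 expression in Th17 cells and is also expressed by innate lymphoid cells and other effector T cells. Signals on the KO array were 151.1, 125.9, 83.1, 81.6 and 104.2, against 317.0, 297.2, 308.6, 264.8 and 188.4 for the same probe sets on the WT array. Each of the 5 probe sets was lower on the KO array than on the WT array. The differences, in the same order, were -0.97, -1.14, -1.79, -1.60 and -0.75, with a median of -1.14 and an SD of 0.43 between probe sets. Of the 5, 3 were past 2-fold, whereas the brightest, at 1.95-fold lower, fell just short of it. Rora was past 2-fold without centring (-1.07) and by the median of its measured probe sets. Among 306 genes with 5 or more measured probe sets, 53 (17.3%) had all of them below 0, Rora among them.

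The other 4 Rora probe sets were dim. One read 7.6 on the KO array and 70.7 on the WT array, just above the WT median, and another 9.4 and 45.6, below the median on both. The last pair, at 5.2 and 4.0 and at 1.7 and 4.7, was also below it. With the floor at the 70th percentile no Rora probe set was measured on both arrays, and only a bound of -0.10 remained. Of the related receptors, Nr1d2, a REV-ERB repressor that binds the same DNA element as ROR proteins, read 529.8 on the KO array and 699.4 on the WT array (-0.30). Rorb and Nr1d1 were below the median on both arrays. Group 2 innate lymphoid cells also express Rora, and 6 of 7 of their markers on the array were measured. Of these, Arg1 (3.25) and Il13 (1.89) were past 2-fold upwards and Il7r (-1.43) past it downwards. The WT signal of Il13, 69.6, was just above the median, and Kit was below the median on both arrays. That list summed to 14115.5 on the KO array and 25735.8 on the WT array, and it shares Gata3 and Il13 with the Th2 markers and Klrg1 with the Treg list. Without Il7r, which T cells in general express, the sums were 7941.8 and 7926.3, and without Gata3 as well 1983.2 and 502.9, so the list as a whole gives no direction. The part of such cells in the Rora values was not tested.

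Ahr was little different. One probe set read 254.9 on the KO array and 224.6 on the WT array (0.29), and the other 45.4 and 43.8, below the median on both. The difference was smaller than the spread between probe sets. Of 7 genes of the Ahr pathway on the array, 4 were measured on both arrays and none was past 2-fold, with a median of 0.20 that turned to -0.04 with the mean of probe sets and was 0.53 with no floor. The xenobiotic-metabolising target Cyp1a1 read 66.7 on the KO array and 117.4 on the WT array (-0.71), close to the floor in the knockout. The detoxifying enzyme gene Nqo1 read 143.3 and 105.6 (0.54), the dimerisation partner Arnt 997.2 and 890.9 (0.27) and the feedback regulator Tiparp 2340.2 and 2277.1 (0.14). The 3 Arnt probe sets ran from -0.63 to 0.27 and the 3 of Tiparp from -0.13 to 0.14, so their direction depends on the probe set read. The Ahr repressor gene Ahrr read 102.3 on the KO array, and 58.9, below the median, on the WT array, a bound of 0.67 or higher. Cyp1b1, at 61.7 and 28.5, was below the median on both.

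Il17a, which encodes the signature Th17 cytokine, lay at the floor. It read 62.2 on the KO array, below its median, and 73.7 on the WT array, just above its median, at percentiles 49.1 and 51.0. The bound of -0.07 or lower sets no size, and no difference was measurable. Genes for the IL-17 receptors were measured, although 4 of the 9 list genes on the array, the cytokines Il17b, Il17d and Il25 and the receptor gene Il17rc, were below the median on both arrays. The common receptor subunit Il17ra read 2250.7 on the KO array and 3662.1 on the WT array (-0.60), and Il17rb, the IL-25 receptor subunit, 116.3 and 220.2 (-0.82). The adaptor Traf3ip2 read 904.1 and 1352.2 (-0.48) and Il17re 140.0 and 166.9 (-0.15). All 4 measured genes lay below 0, none past 2-fold, with a median of -0.54, or -0.17 with no floor. Across the array 46.9% of 10144 genes lay below 0, as did all 9 T cell markers, whose median was -1.03. The part of T cell content in these receptor and adaptor values was not tested. Markers of γδ and NKT cells, which can also make IL-17A, summed to 1218.9 on the KO array and 965.1 on the WT array over 4 genes, with Zbtb16 at -1.38, Blk, which B cells share, at 1.08 and Sox13 at 0.01. Without Blk the sums were 280.6 on the KO array and 488.7 on the WT array, the opposite direction.

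Il21 was lower in the knockout by both of its probe sets. The brighter read 1446.9 on the KO array and 3555.3 on the WT array, at percentiles 88.6 and 95.0, a difference of -1.19 or 2.29-fold lower. The dimmer read 91.1 and 306.5, a difference of -1.65 or 3.13-fold lower. Both KO signals were thus below their WT counterparts by more than 2 SD of the spread between probe sets. Of the 10144 genes 2.55% had a lower difference than Il21, and it stayed past 2-fold under all 11 alternative settings, from -1.42 to -1.18. Among 4657 genes with 2 or more measured probe sets, 72 (1.55%) had all of them past 2-fold downwards, Il21 being one.

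Of 11 other measured IL-21 pathway genes, 9 lay below 0, 2 being past 2-fold, and 1 was past 2-fold upwards, with a median of -0.53. Over all 10144 genes 46.9% lay below 0. The receptor gene Il21r read 782.9 on the KO array and 1217.9 on the WT array (-0.53). The signalling kinases Jak3 and Jak1 read 1170.6 and 3122.1 on the KO array, against 2610.4 and 6197.7 on the WT array (-1.05 and -0.89). The feedback inhibitor Socs3 read 6126.3 on the KO array and 14713.7 on the WT array (-1.16). Irf4, a factor that activates Il21 and also drives plasma cell formation, went the other way with 7749.1 on the KO array and 1891.7 on the WT array (2.14, and 0.95 in its other probe set). Plasma cell markers were higher on the same array, with Sdc1 at 3.70, Bhlha15 at 3.35, Derl3 at 2.31 and Igha at 2.04. The Sdc1 value rests on a WT signal of 76.9, close to the floor, and its 3 probe sets ran from 0.79 to 3.70.

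The differences of Il21 and Rora lay among those of the T cell markers. The 9 T cell markers were all lower than 0, 5 by 2-fold or more, with a median of -1.03, led by Trat1 (-2.64), Cd4 (-1.59), Cd5 (-1.41) and Cd247 (-1.29). Il21 lay -0.17 from that median and Rora 0.06, and 4 of the 9 markers were lower than Il21 and 5 lower than Rora. Relative to the same median Ikzf4 lay at 1.71, Nrp1 at 1.85, Ahr at 1.31, Foxp3 at 0.68 and Ikzf2 at 0.42. B cell markers had a median of 0.995, with all 8 measured above 0 and Blnk (2.46), Cd79b (1.28), Blk (1.08) and Cr2 (1.06) the highest. Markers of CD8 and natural killer cells summed to 10293 on the KO array and 32711 on the WT array over 8 genes, with 5 of 7 measured at least 2-fold lower. Of 8 Th2 markers, which summed to 16724.4 on the KO array and 23066.2 on the WT array, 7 were measured, with a median of -0.31 and Il13 alone past 2-fold. The Il13 difference rests on a WT signal just above the median. The part of cell composition in the member values was not tested.

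**Figure D3:**
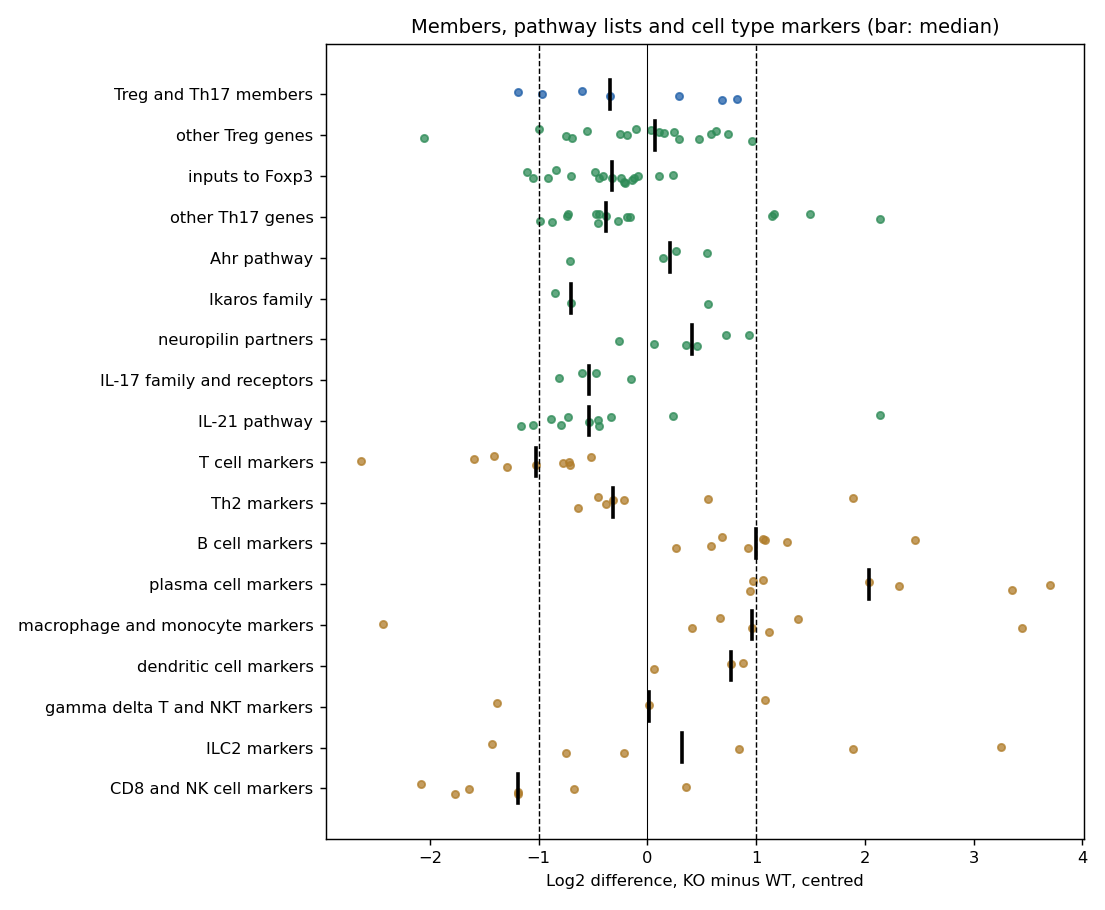
Centred log2 difference, KO minus WT, of genes above the floor on both arrays, by list, for the members (blue), pathway lists (green) and cell type markers (brown). Black bars are medians, dashed lines mark 2-fold, and lists with fewer than 3 measured genes are not drawn. The member median is -0.35, that of T cell markers -1.03 and that of plasma cell markers 2.04.

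The other genes of the lineages were taken from lists chosen by known role. Of 18 further Treg genes, all measured, 1 was past 2-fold downwards, 0 upwards and 17 neither, with a median of 0.07 that changed sign under other settings (-0.12 to 0.13). Lag3, an inhibitory receptor, read 140.8 on the KO array and 626.7 on the WT array (-2.05). Ctla4, the inhibitory receptor through which Tregs restrain costimulation, read 4610.8 and 9860.5 (-0.99, and -1.15 with quantile normalization). Socs2, a STAT5-induced regulator, read 16395.2 and 9067.8 (0.96), and Klrg1, a lectin-like receptor of effector cells, 83.7 and 150.9 (-0.75). The IL-2 receptor α chain gene Il2ra, high on Tregs and on activated T cells, read 10047.2 and 6478.3 (0.74).

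Genes that feed into Foxp3 induction were mostly lower. Of 17 measured, 15 lay below 0, 2 of them by 2-fold or more, and 0 were higher by as much, with a median of -0.33. Over all 10144 genes 46.9% lay below 0, and all 9 T cell markers did, with a median of -1.03. The part of T cell content in this list was not tested. The TGF-β receptor gene Tgfbr2 read 3099.2 on the KO array and 7191.4 on the WT array (-1.11). Stat5b, which carries the IL-2 signal, was at -1.06 in its brighter probe set and 0.17 in the other. Runx1, a partner of Foxp3, read 1249.3 and 2525.8 (-0.91, its 6 probe sets running from -1.13 to -0.45), and Foxo3 772.2 and 1487.6 (-0.84).

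The further Th17 genes split. Of 15 measured, 4 were at least 2-fold higher, 0 lower and 11 neither, and those 11 all lay below 0, giving a median of -0.38. Among all 10144 genes 7.15% were at least 2-fold higher, 4.45% were lower by as much, and 46.9% lay below 0. The 4 higher Th17 genes were Irf4 together with Tmem176b (907.1 on the KO array and 346.3 on the WT array, 1.49) and Tmem176a (630.0 and 305.9, 1.15), ion channel genes found in Th17 and myeloid cells, and the chemokine receptor Ccr6 (555.7 and 266.4, 1.16). Ccr6 is carried by B cells as well as Th17 cells. The B cell and plasma cell markers measured on both arrays were higher on the KO array. So were 6 of 7 measured macrophage and monocyte markers, Ccr2 being lower. The part of such cells in the values of these 4 genes was not tested. Ccl20 and Il1r1 were below the median on both arrays, and Il23r and Il22 were not analysed here. Over the 74 distinct measured genes of the 9 pathway lists, 5.41% were past 2-fold upwards and 6.76% downwards, beside 7.15% and 4.45% of all genes. The 5 lower pathway genes became 8 without centring or with loess and 9 with quantile normalization.

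**Figure D4:**
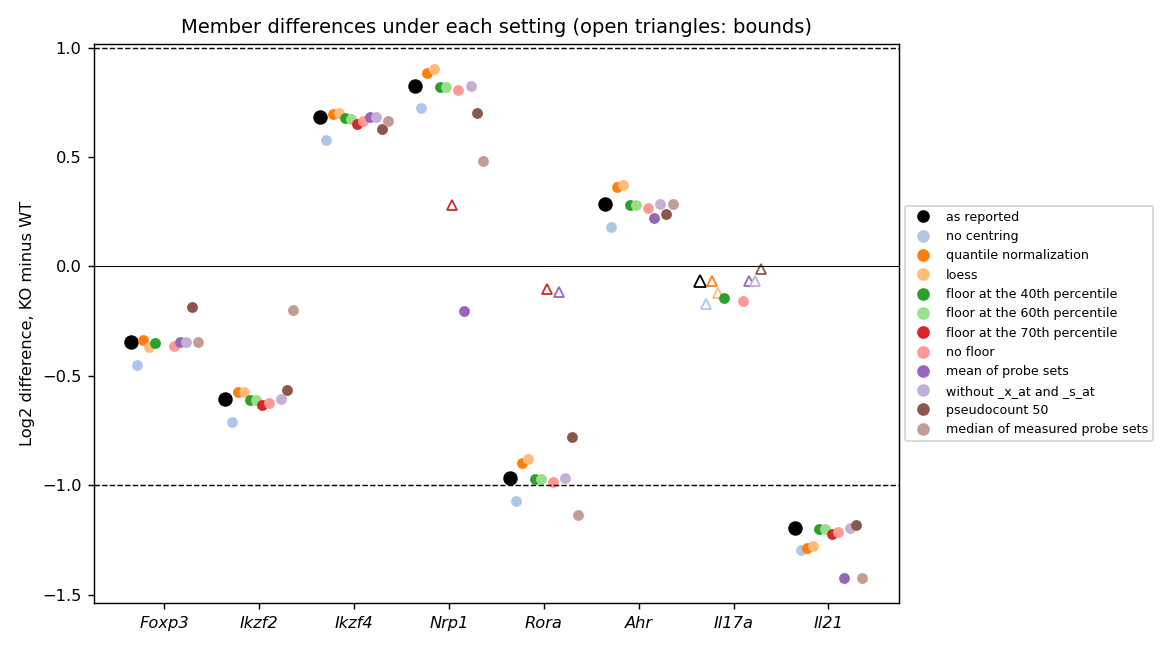
Log2 difference, KO minus WT, of each member gene as reported (large black symbol) and under 11 alternative settings (colours), with open triangles for bounds and dashed lines at 2-fold. Il21 stays below -1 throughout, Rora lies on either side of it, and Nrp1 turns to -0.20 when its probe sets are averaged.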

How the data were processed

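The authors deposited a linear signal intensity for every probe set on each array. How the probes were summarised is not stated in the labels, and labelling used the one-cycle Affymetrix kit from 3 µg of RNA, per the labels' protocols. The central 96% of signals averaged 500.004 on the KO array and 500.003 on the WT array, while the 75th percentiles were 423.4 and 456.2, so the arrays carry a global scaling and no quantile normalization. Under such a scaling, a rise in abundant transcripts lowers the others.

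Of 45101 probe sets, 34945 had 1 gene symbol in the platform annotation, 932 several and 9160 none, and 64 were controls. Probe sets below an array's median were treated as at the floor. Log2 differences, KO minus WT, were centred on their median, with controls left out. Where 1 array was below the floor, the difference is a bound taken against that floor; where both were, none is given. Signals were not compared between probe sets, other than to choose the brightest per gene by mean log2 signal. With 1 array per group no test was run.

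The members, the 9 pathway lists, the 10 marker lists and the motifs were chosen with earlier results of these data known. The text names all members, up to 4 genes of a list with the largest difference among those above the floor on both arrays, and Il23r, Il22, Ctla4, Il2ra, Ikzf1, Ikzf3, Cyp1b1, Ahrr, Il21r, Il17ra, Gata3, Cd4, Cd3e and Ecm1. Eif2s3y, Xist, Gipc1, Il4, Cd3d, Cd3g, Cd2, Cd28 and genes named for being below the median or above it on 1 array fall outside this rule and were named after their values were seen. Alternatives were no centring, quantile normalization, loess (span 0.3), floors at percentiles 40, 60 and 70, no floor, the mean of probe sets, no _x_at or _s_at probe sets and a pseudocount of 50, plus the median of measured probe sets, which was chosen after seeing the data. Scripts used Python 3.11.15, numpy 2.4.6, pandas 2.3.3 and statsmodels 0.14.6 and were tested on simulated data. RefSeq promoter windows are those of GRCm38.p6, and the files name no genome build.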

Additional observations from a re-analysis of the deposited data

How the results depend on the processing

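No paired analysis was possible because there was only 1 array a group. Il21 stayed at least 2-fold lower under all 11 alternatives. The count of member genes at least 2-fold lower was 1 as reported and 2 without centring and with the median of measured probe sets, Rora being the other gene. No member was at least 2-fold higher under any alternative. Member probe sets that reached the floor on each array numbered 15 as reported, 7 with the floor at the 60th percentile, 4 at the 70th and 25 with no floor, by construction of those floors, and member genes numbered 3 instead of 7 at the 70th percentile. The spread between probe sets was 1.10 with no floor. Pathway genes at least 2-fold lower numbered 5 as reported, 8 without centring, 9 with quantile normalization and 8 with loess, while those at least 2-fold higher numbered 4 as reported, 2 at the 70th percentile and 8 with no floor. Without centring, calls over all genes split 49.0% higher, against 61.6% as reported. With no floor, 12.7% of all genes were at least 2-fold lower and 15.5% higher. Beside Rora (-0.10 at the 70th percentile and -0.12 with probe sets averaged, both bounds), Nrp1 moved to 0.28 (a bound at the 70th percentile) and -0.20 (probe sets averaged), and Ikzf2 to -0.20 with the median of measured probe sets. List medians that moved or changed sign stand beside their lists in the report. The cause of the centring and scaling shifts was not tested. Signals near the array median limit Foxp3, Il17a and the dimmer Rora and Nrp1 probe sets.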
